A study of Homo sapiens with 16 samples.

Results

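The change in gene expression between day 5 and day 3 of neural crest induction was followed in human embryonic stem cells whose FOXB1 gene had been edited to a knockout. All genes of this time course were taken that the authors' deposited table did not mark as failed and that reached at least 1 FPKM at day 5 or day 3. FPKM is the number of sequenced fragments of a gene scaled by transcript length and by the total of mapped fragments. This gave 14079 of the 23284 genes in the table, of which 13997 carried a test of day 5 against day 3. Nearest to the minimum, MACC1 entered with 0.390 FPKM at day 5 and 1.00 FPKM at day 3, and EGFL6 did not, with 0.999 FPKM at day 5 and 0.258 FPKM at day 3. The cells were WA01, an established human embryonic stem cell line, plated at 20000 cells per cm2 and differentiated in 3 µM CHIR99021, a GSK3 inhibitor that activates WNT signalling. All lines and both days had this treatment. The FOXB1 KO and FOXB1 Het lines were made with CRISPR/Cas9 and a single guide RNA aimed at the translational start of FOXB1, and 2 isogenic wild-type lines, isoWT1 and isoWT2, were kept beside them. The labels call day 5 cells neural crest and day 3 cells pre-neural crest, and give 2 libraries of poly-adenylated RNA for each line and day. Each edited genotype is represented by 1 line, so genotype and line cannot be told apart. The table holds 1 FPKM per gene for each of 6 groups, which are the KO, Het and wild-type lines at day 5 and day 3, and which of the 4 wild-type libraries per day entered the wild-type group is not stated in it. Replicate spread is known only through the deposited test scores, and depth is unknown. Nothing in the labels says that the 2 libraries of a group came from separate cultures, so p-values measure only the spread between these samples, which may be technical.

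Neural crest arises at the border of the neural plate under WNT, BMP and FGF signals. Border factors such as PAX3, PAX7, MSX and ZIC proteins come first, and specifiers such as FOXD3, SNAI2, SOX9, SOX10, ETS1 and TFAP2 proteins follow. Specified cells undergo an epithelial-to-mesenchymal transition, migrate, and give rise to glia, melanocytes, sensory and autonomic neurons and facial mesenchyme. FOXB1 is a forkhead transcription factor of the early neural plate and of midbrain and hindbrain progenitors. The study asked how removal of FOXB1 affects expression dynamics in crest induction.

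Between day 5 and day 3 the KO cells gained RNA of most crest specifiers and glial crest genes and lost RNA of 14 of 19 tested pluripotency genes, 5 of 7 tested mesendoderm genes, 5 of 10 tested midbrain genes and 10 of 24 tested WNT pathway genes. Only 1 of the mesendoderm falls and 11 of the pluripotency falls were of genes at 1 FPKM or more in a Het or wild-type group. In the authors' deposited table, 1694 of the 13997 tested genes had a q-value below 0.05. Of these, 1053 rose (7.52% of those tested) and 641 fell (4.58%). At least 8-fold changes were seen for 168 of the called rises and 52 of the called falls. The median log2 change, day 5 over day 3, was 0.08 over all tested genes, 1.75 over the called rises and -1.51 over the called falls. A level of at least 1 FPKM was reached by 13563 genes at day 5 and 13113 genes at day 3. The standard error (SE) of a log2 change was the deposited log2 fold change divided by its test score, and it had a median of 0.52. It was 0.67 for genes at 1 to 3 FPKM and 0.42 for genes at 100 FPKM or more. A gene is said to rise or fall only where its deposited q-value was under 0.05. List counts are to be read beside the share over all tested genes of the same line. In Het 4.99% of tested genes rose and 2.95% fell, and in wild type 11.6% rose and 10.7% fell. Counts of different lines are therefore not directly comparable. For Het and wild type, list counts cover the list members tested in that line, which can differ from those tested in KO. With a normal p taken from the deposited test scores instead, 472 genes rose and 266 fell.

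FOXB1 itself (chromosome 15, 60296421 to 60298142 in hg19) had 1.86 FPKM at day 5 and 15.5 FPKM at day 3 (log2 change -3.06, SE 0.66) in the KO line and fell. It had 4.47 FPKM at day 5 and 7.73 FPKM at day 3 in Het, and 5.51 FPKM at day 5 and 18.3 FPKM at day 3 in wild type. FOXB1 RNA was thus present in the KO line at day 3 and was lowest of the 6 groups in KO at day 5. An edit at the translational start can leave the RNA in place, so these levels do not check the loss of the protein.

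Some genes outside the crest lists, such as OLIG2 and PRAME, were higher in the KO group at day 5 than in the other 5 groups. Of the 1053 rises, 202 (19.2%) were of genes under 1 FPKM in all 4 Het and wild-type groups, and so were 94 of the 168 rises of at least 8-fold. Their median level was 2.47 FPKM at day 5 and 0.372 FPKM at day 3 in KO, and 13 of them reached 1 FPKM at day 3. Among the falls, 46 were of such genes. The 202 genes reached 1 FPKM in KO alone, most of them at day 5 only, which favours a rise. These counts are therefore a description, and the share of such genes among all tested genes was not counted. The 202 were not sorted by cell type, and they include NFIA and NFIB of the crest glia list below. OLIG2, a bHLH factor of the oligodendrocyte lineage, had 16.4 FPKM at day 5 and 0.442 FPKM at day 3 (log2 change 5.21, SE 0.72) in KO. Its levels were 0.0189 FPKM at day 5 and 0.0618 FPKM at day 3 in Het, and 0.252 FPKM at day 5 and 0.361 FPKM at day 3 in wild type. Its paralog OLIG1 had 13.6 FPKM at day 5 and 0.388 FPKM at day 3 (log2 change 5.13, SE 0.73) in KO, against 0 FPKM on both days in Het. MLC1, an astrocyte membrane protein, had 21.9 FPKM at day 5 and 1.09 FPKM at day 3 (log2 change 4.33, SE 0.57), and PRAME, a cancer-testis antigen, had 55.7 FPKM at day 5 and 2.35 FPKM at day 3 (log2 change 4.57, SE 0.56). PRAME had 0.104 FPKM at day 5 in Het and 0.751 FPKM at day 5 in wild type. The cancer-testis gene MAGEA12 had 9.12 FPKM at day 5 and 0.512 FPKM at day 3 (log2 change 4.16, SE 0.72) and was listed at 0 on both days in Het. All of these genes were high in KO at day 5, lower but above 0 in KO at day 3, and near 0 in Het.

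Whole lists of such markers were mixed. Of 10 oligodendrocyte progenitor markers, 7 were tested, 3 rose (OLIG1, OLIG2 and CSPG4) and 1 fell (NCAN). Their summed level was 185 FPKM at day 5 and 166 FPKM at day 3 in KO, and between 79.7 and 111 FPKM in the Het and wild-type groups. Of 12 astrocyte markers, 9 were tested, 5 rose (S100B, MLC1, SPARCL1, FABP7 and CD44) and 1 fell (SLC1A2), with a sum of 374 FPKM at day 5 and 159.8 FPKM at day 3 in KO. In the other 4 groups this sum ran between 64.9 and 211 FPKM. The astrocyte marker GFAP was at 0.0836 FPKM on both days in KO, and the oligodendrocyte progenitor marker NKX2-2 at 0.0173 FPKM at day 5 and 0.0335 FPKM at day 3. Without genes under 1 FPKM in all Het and wild-type groups, 0 and 3 rises were left in these lists. Both were chosen after the levels had been seen. Of 21 cancer-testis genes in the table, 4 were tested, of which 2 rose and 1, DAZL, fell. Their sum was 71.0 FPKM at day 5 and 10.1 FPKM at day 3 in KO, against 3.14 and 6.81 FPKM in Het and 3.52 and 11.6 FPKM in wild type. Of these 21, 4 were listed at 0 in KO at day 5 and 8 in KO at day 3.

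Abundant genes moved in the same group. EGFR, a receptor tyrosine kinase, had 145 FPKM at day 5 and 7.19 FPKM at day 3 (log2 change 4.33, SE 0.49) in KO, against 4.09 FPKM at day 5 in Het and 8.54 FPKM at day 5 in wild type. SEC61G, a subunit of the endoplasmic reticulum translocon and a neighbour of EGFR on chromosome 7, had 2751 FPKM at day 5 and 301 FPKM at day 3 (log2 change 3.19, SE 0.46). Within 2 Mb of EGFR on each side the table lists 19 genes, of which 13 were tested and 5 rose (SEC61G, EGFR, FKBP9L, SUMF2 and CHCHD2), with no fall, beside 7.52% rises over all tested genes. The window was chosen for the values of EGFR and SEC61G, so this count is a description. SUMF2 had 58.1 FPKM in KO, 45.9 FPKM in Het and 38.3 FPKM in wild type at day 5, and FKBP9L had 8.72 FPKM in KO, 3.74 FPKM in Het and 4.69 FPKM in wild type. The neighbours LANCL2 (5.44 FPKM at day 5 and 8.17 FPKM at day 3) and VOPP1 (18.9 and 25.4 FPKM) were not called. MYC, a growth-promoting transcription factor, had 208 FPKM at day 5 and 16.1 FPKM at day 3 (log2 change 3.70, SE 0.45) in KO, while Het had 2.21 FPKM at day 5 and 8.12 FPKM at day 3 and wild type had 7.46 and 12.0 FPKM. MYC fell in Het and was not called in wild type. The change of MYC was larger in KO than in Het by 5.58 on the log2 scale (SE 0.72, adjusted p 1.6e-10) and larger than in wild type by 4.38 (SE 0.73, adjusted p 3.2e-06), by the difference test described with the other lines. Because 1 value stands for both libraries of a group, it cannot be told whether both KO libraries at day 5 carried these genes. The part of these genes in the results that follow was not tested. Values of Het, where OLIG1, OLIG2, MLC1 and PRAME were near 0, are therefore given beside some of the crest genes. Counts of the main lists are repeated without genes under 1 FPKM in all Het and wild-type groups. This leaves in EGFR, SEC61G, MYC and S100B, which reached 1 FPKM there, so it is no check for such genes. In these bulk samples, fewer cells of a type and less RNA per cell cannot be told apart.

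**Figure D1:**
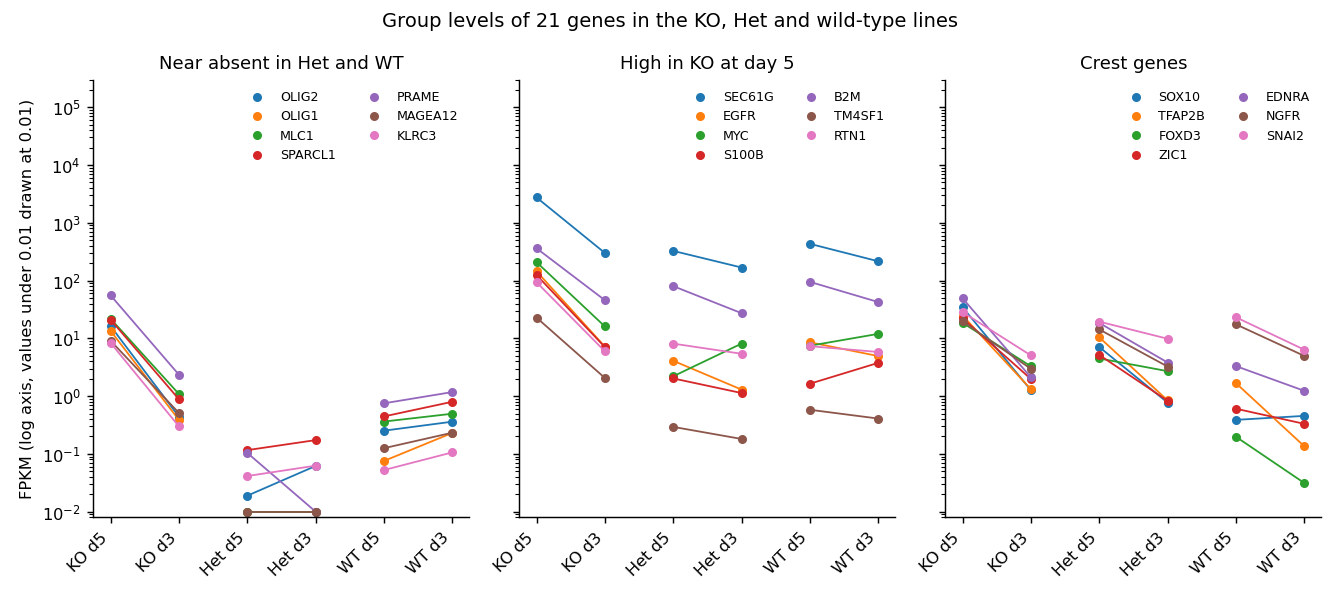
FPKM (vertical, log axis) of 21 genes in the KO, Het and wild-type (WT) groups at day 5 (d5) and day 3 (d3), with a line joining both days of a line, and values under 0.01 FPKM drawn at 0.01. OLIG2 stood at 16.4 FPKM in KO at day 5 and at or under 0.442 FPKM in the other 5 groups, while SNAI2 stood at 28.5 FPKM in KO, 19.5 FPKM in Het and 23.2 FPKM in wild type at day 5.

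Most crest specifiers rose. Of 17 tested, 12 rose and 1 fell, by the q-values of the authors' deposited table, and all these calls were of genes at 1 FPKM or more in a Het or wild-type group. The list median over members above 0, on the log2(FPKM + 0.1) scale, was 1.25, beside 0.08 for all tested genes, and 2.47 over the members with at least 1 FPKM. Over the whole list of 19, Het gave 7 rises and 1 fall and wild type 6 rises, among the members tested in that line. SOX10, an SRY-box factor that marks migratory crest and drives its glial and melanocyte fates, had 34.6 FPKM at day 5 and 1.27 FPKM at day 3 (log2 change 4.77, SE 0.58) in KO. It had 7.07 FPKM at day 5 and 0.773 FPKM at day 3 in Het (log2 change 3.19, SE 0.78), and 0.388 FPKM at day 5 and 0.455 FPKM at day 3 in wild type. SOX10 thus rose in both edited lines and stayed under 1 FPKM on both days in wild type. The KO change exceeded the Het change by 1.57 (SE 0.98), which was not called.

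ETS1, a crest and endothelial transcription factor, had 33.5 FPKM at day 5 and 1.34 FPKM at day 3 (log2 change 4.64, SE 0.51). TFAP2B, an AP-2 factor of crest, had 24.9 FPKM at day 5 and 1.32 FPKM at day 3 (log2 change 4.24, SE 0.53) in KO, 10.4 FPKM at day 5 and 0.842 FPKM at day 3 in Het, and 1.67 FPKM at day 5 and 0.135 FPKM at day 3 in wild type. Both ETS1 and TFAP2B rose in all 3 lines, and ETS1 had 10.9 FPKM in Het and 6.45 FPKM in wild type at day 5. ZIC1, a zinc finger factor of the border and crest, had 22.3 FPKM at day 5 and 1.98 FPKM at day 3 (log2 change 3.49, SE 0.52), and FOXD3, a forkhead specifier also used by pluripotent cells, had 18.6 FPKM at day 5 and 3.28 FPKM at day 3 (log2 change 2.50, SE 0.67). At day 5 ZIC1 had 5.16 FPKM in Het and 0.605 FPKM in wild type. FOXD3 was 4.49 FPKM at day 5 and 2.71 FPKM at day 3 in Het, not called, and 0.198 FPKM at day 5 in wild type. SNAI2, a zinc finger repressor of epithelial genes, had 28.5 FPKM at day 5 and 5.07 FPKM at day 3 (log2 change 2.49, SE 0.51) in KO and 19.5 FPKM at day 5 and 9.85 FPKM at day 3 in Het. It rose in all 3 lines, and its day 5 levels lay close together.

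The SOX genes of the list rose as well. SOX9, which acts in crest formation and cartilage, had 28.0 FPKM at day 5 and 4.92 FPKM at day 3 (log2 change 2.51, SE 0.49), SOX5 had 12.4 FPKM at day 5 and 1.77 FPKM at day 3 (log2 change 2.80, SE 0.52), and SOX8 had 8.91 FPKM at day 5 and 1.10 FPKM at day 3 (log2 change 3.02, SE 0.61). At day 5 SOX9, SOX5 and SOX8 had 6.62, 7.57 and 3.43 FPKM in Het, and 3.39, 9.10 and 2.21 FPKM in wild type. TFAP2C, TFAP2A and LMO4, a LIM-only cofactor, rose by log2 changes of 1.26, 1.02 and 0.90. At day 5 TFAP2C and TFAP2A had 11.9 and 29.6 FPKM in KO, and 4.28 and 12.7 FPKM in Het. The exceptions were few. PAX7, a paired-box factor of the border and early crest, had 4.45 FPKM at day 5 and 14.4 FPKM at day 3 (log2 change -1.70, SE 0.51) and fell, as it did in Het. Its paralog PAX3 had 43.1 FPKM at day 5 and 36.5 FPKM at day 3 (log2 change 0.24, SE 0.46) and was not called, while in wild type it stood at 9.35 FPKM at day 5 and 1.79 FPKM at day 3 (log2 change 2.39, SE 0.60). SNAI1, MYB and ID3, a BMP-induced inhibitor of bHLH factors, had log2 changes of 0.73, 1.08 and -0.56 and were not called. The difference between the KO and wild-type changes could be tested for 13 specifiers, SOX10 not among them, and that between KO and Het for 17. No difference was called by the test described with the other lines. Over all genes that test called 45 differences from wild type, and 730 with the SE scaled to the deposited p-values. Specifiers were not counted with the scaled SE, so the missing calls do not show that the changes were alike.

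**Figure D2:**
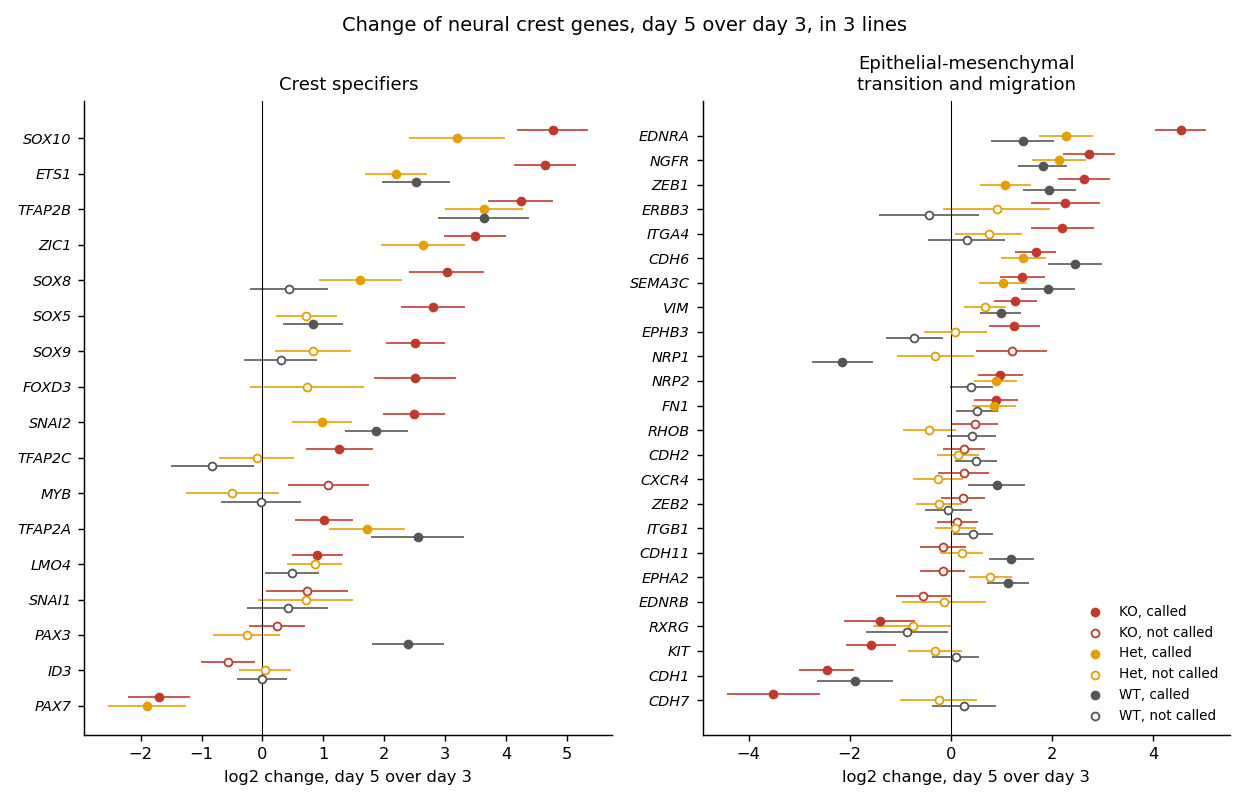
Log2 change, day 5 over day 3, with its SE (horizontal bars) for tested crest specifiers (left) and epithelial-mesenchymal transition and migration genes (right) in the KO, Het and wild-type (WT) lines, filled where called. A line is left out for a gene that had no test score there, such as SOX10 in wild type. SOX10 reached 4.77 in KO and 3.19 in Het, and CDH7 fell with -3.51 in KO.

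Genes of the epithelial-to-mesenchymal transition and of migration moved in both directions, with more rises. Of 24 tested, 11 rose and 4 fell by the authors' deposited table, with a list median of 0.89. EDNRA, an endothelin receptor of cranial crest, had 49.5 FPKM at day 5 and 2.12 FPKM at day 3 (log2 change 4.55, SE 0.51) in KO, 18.5 FPKM at day 5 and 3.82 FPKM at day 3 in Het, and 3.31 FPKM at day 5 and 1.23 FPKM at day 3 in wild type. It rose in all 3 lines, and its KO change exceeded the wild-type change by 3.13 (SE 0.81, adjusted p 0.0376). NGFR, the p75 neurotrophin receptor used to sort crest, had 19.7 FPKM at day 5 and 2.97 FPKM at day 3 (log2 change 2.73, SE 0.52) in KO and 14.3 FPKM at day 5 in Het and 17.5 FPKM at day 5 in wild type. These day 5 levels of NGFR were close in all 3 lines. ZEB1, a repressor of E-cadherin, had 17.2 FPKM at day 5 and 2.77 FPKM at day 3 (log2 change 2.64, SE 0.51), while its paralog ZEB2 had 25.2 FPKM at day 5 and 21.5 FPKM at day 3 and was not called. At day 5 ZEB1 had 4.89 FPKM in Het and 6.36 FPKM in wild type.

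ERBB3, the neuregulin receptor of crest and glia, had 21.9 FPKM at day 5 and 4.57 FPKM at day 3 (log2 change 2.26, SE 0.68) in KO. At day 5 it had 7.20 FPKM in Het and 3.13 FPKM in wild type. Integrin ITGA4, cadherin CDH6, the guidance ligand SEMA3C, the neuropilin NRP2, fibronectin FN1, the ephrin receptor EPHB3 and vimentin VIM rose with log2 changes between 0.89 and 2.21. CDH1, epithelial E-cadherin, had 1.43 FPKM at day 5 and 7.83 FPKM at day 3 (log2 change -2.46, SE 0.54) and fell. It had 0.193 FPKM at day 5 and 0.442 FPKM at day 3 in Het, and 0.271 and 1.01 FPKM in wild type. CDH1 was thus highest in KO on both days. CDH7, a cadherin of migratory crest in chick, had 0.119 FPKM at day 5 and 1.36 FPKM at day 3 (log2 change -3.51, SE 0.92) and also fell, as did the receptor KIT (3.35 FPKM at day 5 and 10.0 FPKM at day 3, log2 change -1.58, SE 0.49) and the retinoid receptor RXRG (1.94 FPKM at day 5 and 5.16 FPKM at day 3, log2 change -1.41, SE 0.70). CDH2, neural cadherin, had 101 FPKM at day 5 and 84.5 FPKM at day 3 and was not called. In KO the epithelial cadherin therefore fell and the neural one was not called.

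Neural plate border genes fell more often than they rose. Of 17 tested, 2 rose (ZIC1 and TFAP2A, both also specifiers) and 5 fell, and 4 of these falls were of genes at 1 FPKM or more in a Het or wild-type group. The list median was -0.69. DLX5, a homeobox factor of the border and placodes, had 0.304 FPKM at day 5 and 3.20 FPKM at day 3 (log2 change -3.40, SE 0.93), and GBX2, a homeobox factor of the hindbrain border, had 1.08 FPKM at day 5 and 6.07 FPKM at day 3 (log2 change -2.49, SE 0.71). IRX1, an Iroquois homeobox factor, had 8.60 FPKM at day 5 and 30.2 FPKM at day 3 (log2 change -1.81, SE 0.53) and fell, and so did PAX7. MSX1 and MSX2, homeobox targets of BMP, had 16.4 and 31.2 FPKM at day 5 and 13.4 and 18.0 FPKM at day 3 in KO and were not called. In wild type MSX1 had 4.66 FPKM at day 5 and 0.812 FPKM at day 3. MSX1 rose in wild type and MSX2 in both Het and wild type.

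Genes of crest glia and melanocytes had the highest share of rises among the lists. Of 11 tested, 9 rose and none fell by the authors' deposited table, beside 7.52% and 4.58% of all tested genes. Of the rises, 7 were of genes at 1 FPKM or more in a Het or wild-type group, with S100B among these 7. S100B, a calcium-binding protein of Schwann cells and astrocytes, had 125 FPKM at day 5 and 7.05 FPKM at day 3 (log2 change 4.14, SE 0.56) in KO, with 2.02 FPKM at day 5 in Het and 1.64 FPKM at day 5 in wild type. The radial glial lipid carrier FABP7 had 98.2 FPKM at day 5 and 17.6 FPKM at day 3 (log2 change 2.48, SE 0.50), and its change exceeded that in wild type by 2.81 (SE 0.73, adjusted p 0.0407). At day 5 FABP7 had 31.9 FPKM in Het and 16.3 FPKM in wild type.

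NFIA and NFIB, gliogenic factors, had 1.07 and 5.29 FPKM at day 5 and 0.123 and 0.436 FPKM at day 3, and were under 1 FPKM in all Het and wild-type groups. SOX10, FOXD3 and ERBB3 were also among the rises. In Het 3 of the list rose and in wild type none did. The pigment cell genes PMEL and MLANA had 44.8 and 1.39 FPKM at day 5 and 69.6 and 1.42 FPKM at day 3 and were not called. As S100B, FABP7, NFIA and NFIB are also expressed by central glia, the values of OLIG1, OLIG2 and MLC1 above stand beside this list.

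Sensory and autonomic genes were mostly low. Of 21 listed, 5 were tested, 3 fell and 1 rose. RET, the receptor for ligands of the GDNF family, had 0.191 FPKM at day 5 and 4.19 FPKM at day 3 (log2 change -4.45, SE 0.69). NTRK2, the receptor for brain-derived neurotrophic factor, had 0.712 FPKM at day 5 and 6.54 FPKM at day 3 (log2 change -3.20, SE 0.56) in KO, against 14.3 FPKM at day 5 and 4.47 FPKM at day 3 in Het and 34.7 and 28.0 FPKM in wild type. The KO change minus the wild-type change was -3.51 on the log2 scale (SE 0.69, adjusted p 0.000479), and the KO change minus the Het change was -4.87 (SE 0.81, adjusted p 9.8e-06). NTRK2 thus fell in KO, rose in Het and had its highest levels on both days in wild type. POU4F1, a sensory neuron homeobox factor, had 1.99 FPKM at day 5 and 8.30 FPKM at day 3 (log2 change -2.06, SE 0.56), and the rise was that of RUNX1 (1.11 FPKM at day 5 and 0.158 FPKM at day 3, log2 change 2.81, SE 1.19), a gene under 1 FPKM in all Het and wild-type groups. NTRK3, not called in KO (1.26 FPKM at day 5 and 2.90 FPKM at day 3), had a lower change than in wild type, with a difference of -3.66 (SE 0.91, adjusted p 0.0241).

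Most pluripotency genes tested fell. Of 19 tested, 14 fell and none rose by the authors' deposited table, with a list median of -1.60. In Het 6 of the list fell, and in wild type 9 fell and 1 rose. POU5F1, the pluripotency factor OCT4, had 8.56 FPKM at day 5 and 67.5 FPKM at day 3 (log2 change -2.98, SE 0.50) in KO, 4.79 FPKM at day 5 and 16.4 FPKM at day 3 in Het, and 3.61 FPKM at day 5 and 45.7 FPKM at day 3 in wild type. It fell in all 3 lines and was highest at day 3 in KO. NANOG had 1.25 FPKM at day 5 and 6.76 FPKM at day 3 (log2 change -2.43, SE 0.64) in KO, while Het and wild type held at most 1.03 FPKM on either day. PRDM14, a chromatin factor of the naive and germline states, had 0.445 FPKM at day 5 and 9.38 FPKM at day 3 (log2 change -4.40, SE 0.69). The NODAL pathway genes NODAL, its co-receptor TDGF1 and its relative GDF3 had 0.893, 1.27 and 0.301 FPKM at day 5, against 5.22, 7.62 and 3.90 FPKM at day 3. These 3 genes were under 1 FPKM in all Het and wild-type groups, and without such genes 11 falls were left.

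L1TD1, the transcript ESRG, the methyltransferase DNMT3B, ZFP42, USP44, SALL4, the NODAL cofactor FOXH1 and LIN28A, an RNA-binding inhibitor of let-7 maturation, also fell. ESRG had 39.6 FPKM at day 5 and 260.4 FPKM at day 3 (log2 change -2.72, SE 0.43), and LIN28A had 238 FPKM at day 5 and 629 FPKM at day 3 (log2 change -1.40, SE 0.44). SOX2, shared by pluripotent and neural cells, was 58.0 FPKM at day 5 and 75.5 FPKM at day 3 and was not called. DPPA4, TERF1 and LIN28B were not called either, and the log2 change of LEFTY1 was -3.74 (SE 1.25) without a call. Some genes that fell were still abundant at day 5, LIN28A at 238 FPKM, ESRG at 39.6 FPKM and DNMT3B at 30.5 FPKM.

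A minority of primitive streak and mesendoderm genes was expressed in KO, and most of these fell. Of 21 listed, 7 reached 1 FPKM and were tested, and 5 fell, and 1 of the falls, that of KDR, was of a gene at 1 FPKM or more in a Het or wild-type group. EOMES, MIXL1, CER1 and T reached the minimum in KO alone, where they were high at day 3, which favours a fall. The list median over all 21 was -0.29. EOMES, a T-box factor of mesendoderm, had 0.234 FPKM at day 5 and 4.46 FPKM at day 3 (log2 change -4.26, SE 0.81) in KO and at most 0.0486 FPKM in Het and wild type. MIXL1, a homeobox factor of the streak, had 0.932 FPKM at day 5 and 9.35 FPKM at day 3 (log2 change -3.33, SE 0.94), CER1, a secreted antagonist of NODAL, had 1.60 FPKM at day 5 and 17.5 FPKM at day 3 (log2 change -3.45, SE 0.65), and T, the brachyury gene, had 0.0895 FPKM at day 5 and 1.29 FPKM at day 3 (log2 change -3.85, SE 1.14). All of these stood well above Het and wild type at day 3. KDR, an endothelial and mesodermal growth factor receptor, had 2.83 FPKM at day 5 and 13.1 FPKM at day 3 (log2 change -2.22, SE 0.49). GSC and PDGFRA were tested and not called.

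The WNT pathway lost more members than it gained. Of 24 tested, 10 fell and 2 rose by the authors' deposited table, beside 4.58% and 7.52% of all tested genes, with a list median of -0.36. All 10 falls and 1 of the rises were of genes at 1 FPKM or more in a Het or wild-type group. The median log2 ratio of FPKM over the tested members alone was -0.90. Of the ligands, WNT4 had 0.884 FPKM at day 5 and 9.69 FPKM at day 3 (log2 change -3.45, SE 0.60) and WNT8A 0.772 FPKM at day 5 and 4.56 FPKM at day 3 (log2 change -2.56, SE 0.72), and both fell. WNT3A, a ligand of the dorsal neural tube, had 6.22 FPKM at day 5 and 1.74 FPKM at day 3 (log2 change 1.83, SE 0.68) and rose, as did WNT5B (1.73 FPKM at day 5 and 0.496 FPKM at day 3, log2 change 1.80, SE 0.76). WNT1, a dorsal midbrain ligand, had 26.2 FPKM at day 5 and 18.3 FPKM at day 3 and was not called. The 5 ligands tested and named here thus include falls, rises and WNT1 without a call.

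Of the receptors, FZD7 had 31.1 FPKM at day 5 and 189 FPKM at day 3 (log2 change -2.60, SE 0.42) and FZD10 3.74 FPKM at day 5 and 8.88 FPKM at day 3 (log2 change -1.25, SE 0.58). The secreted antagonists SFRP1, SFRP2 and DKK1 had 27.8, 24.8 and 2.79 FPKM at day 5, against 102, 95.6 and 8.66 FPKM at day 3. APCDD1, a membrane inhibitor, SP5, a zinc finger target of WNT, and TCF7, a nuclear effector, fell with log2 changes of -1.76, -1.91 and -1.98 (SE 0.49, 0.49 and 0.61). The feedback targets did not move as a block. AXIN2 had 46.3 FPKM at day 5 and 39.5 FPKM at day 3, NKD1 11.0 and 11.4 FPKM, LEF1 20.8 and 30.3 FPKM, and none of these 3 was called. In Het 6 of the list fell and 2 rose, and in wild type 6 fell and 4 rose.

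SP5 and DKK1 are shown by their promoters because they alone among the WNT genes that fell and had a promoter at hand (7 genes) carried a TCF/LEF motif, the sequence bound by the nuclear effectors of WNT. The motif searched starts with CTTTG and goes on with A or T at each of the next 2 positions, which gives the form CTTTGAA, the form CTTTGAT, the form CTTTGTA and the form CTTTGTT, on both strands of the 250 bases before the transcript start in RefSeq (GRCh38.p14). Overlapping matches were counted once. The promoter of SP5 is chr2:170715087-170715336 on the plus strand and holds 3 matches, and that of DKK1 is chr10:52314031-52314280 on the plus strand and holds 2. Capitals mark the matches.
SP5: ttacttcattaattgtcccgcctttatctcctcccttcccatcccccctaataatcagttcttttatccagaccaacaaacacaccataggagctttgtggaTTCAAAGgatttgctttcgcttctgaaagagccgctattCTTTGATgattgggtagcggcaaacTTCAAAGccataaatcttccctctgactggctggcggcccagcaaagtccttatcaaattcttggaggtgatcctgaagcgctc
DKK1: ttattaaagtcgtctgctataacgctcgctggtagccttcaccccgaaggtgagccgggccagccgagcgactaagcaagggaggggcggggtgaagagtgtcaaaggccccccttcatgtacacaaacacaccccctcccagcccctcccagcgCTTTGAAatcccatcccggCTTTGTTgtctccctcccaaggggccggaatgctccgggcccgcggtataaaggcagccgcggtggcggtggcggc
A motif was found in 2 of 7 promoters (28.6%) of WNT genes that fell and in 0 of 8 promoters of WNT genes that were tested and did not fall. It was found in 9.61% of the 770 promoters matched to genes that rose, in 9.11% of the 483 matched to genes that fell, in 7.30% of the 10597 matched to tested genes and in 12.1% of all 27305 promoters in the table. A match is a description of letters and no evidence of binding.

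The BMP and TGFB pathway changed in both directions. Of 24 tested members, 8 rose and 5 fell by the authors' deposited table, and 6 of the rises were of genes at 1 FPKM or more in a Het or wild-type group. The ligands BMP4, BMP5 and BMP7 had 24.1, 23.3 and 25.2 FPKM at day 5 and 9.55, 7.90 and 13.2 FPKM at day 3, and all 3 rose. BMP2 fell, with 10.1 FPKM at day 5 and 23.2 FPKM at day 3 (log2 change -1.20, SE 0.47), against 5.45 FPKM at day 5 and 1.53 FPKM at day 3 in wild type, where it rose. The KO change of BMP2 minus the wild-type change was -3.04 (SE 0.76, adjusted p 0.0254). Of the receptors, BMPR1B rose, with 5.19 FPKM at day 5 and 1.06 FPKM at day 3 (log2 change 2.29, SE 0.58), while BMPR1A was not called. Of the antagonists, FST, a secreted trap of activins and BMPs, had 18.4 FPKM at day 5 and 275 FPKM at day 3 (log2 change -3.90, SE 0.45) in KO, 39.6 FPKM at day 5 and 171 FPKM at day 3 in Het, and 54.4 FPKM at day 5 and 187 FPKM at day 3 in wild type. GREM1 had 6.82 FPKM at day 5 and 25.6 FPKM at day 3 (log2 change -1.91, SE 0.46), and NOG, CHRD and BAMBI were not called. FST was the most abundant of these antagonists at day 3 in all 3 lines.

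Among intracellular feedback genes, SMAD6 and SMAD7 fell with log2 changes of -1.74 (SE 0.75) and -1.86 (SE 0.69). ID4 rose (17.9 FPKM at day 5 and 8.21 FPKM at day 3), whereas its relatives ID1, ID2 and ID3 were not called. The TGFB ligands TGFB2 and TGFB3 had 3.50 and 1.32 FPKM at day 5, against 0.317 and 0.384 FPKM at day 3, and both were under 1 FPKM in all Het and wild-type groups. TGFBI, a matrix protein induced by TGFB, had 46.6 FPKM at day 5 and 7.11 FPKM at day 3 (log2 change 2.71, SE 0.49) in KO. Its change exceeded those in wild type and Het by 3.29 (SE 0.77, adjusted p 0.00958) and 3.16 (SE 0.77, adjusted p 0.0314). TGFBI had 3.04 FPKM at day 5 and 4.14 FPKM at day 3 in Het and 2.98 FPKM at day 5 and 4.44 FPKM at day 3 in wild type, with no call in either line.

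Of 21 tested genes of FGF signalling and ERK feedback, 4 rose and 4 fell, beside 7.52% and 4.58% of all tested genes. The falls were of 2 ligands and 2 receptors, and the rises of 4 feedback and target genes. The ligand FGF19 had 1.62 FPKM at day 5 and 19.1 FPKM at day 3 (log2 change -3.56, SE 0.60), and FGF8, the organizer ligand of the isthmus, had 0.202 FPKM at day 5 and 3.43 FPKM at day 3 (log2 change -4.09, SE 1.83). The receptors FGFR1 and FGFR3 had 50.7 and 4.39 FPKM at day 5 and 93.7 and 17.2 FPKM at day 3. DUSP6, a phosphatase that inactivates ERK, had 58.3 FPKM at day 5 and 11.0 FPKM at day 3 (log2 change 2.41, SE 0.51), SPRY1, an inhibitor of receptor signalling, had 16.8 FPKM at day 5 and 3.34 FPKM at day 3 (log2 change 2.33, SE 0.57), the ETS factor ETV5 had 22.4 FPKM at day 5 and 4.54 FPKM at day 3 (log2 change 2.30, SE 0.51), and DUSP4 had 16.0 FPKM at day 5 and 4.28 FPKM at day 3 (log2 change 1.91, SE 0.51). These 4 rises stood beside a 145 FPKM level of EGFR at day 5, whose part in them was not tested. DUSP6 also rose in wild type, to 37.7 FPKM at day 5, against 7.07 FPKM at day 3. The ligand FGF2, the receptors FGFR2 and FGFR4, and the feedback genes SPRY2, SPRY4, SPRED1, SPRED2, DUSP5, ETV1, ETV4 and IL17RD were among those not called.

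In the Notch list of 14 tested genes, 1 rose (HEY1, 4.74 FPKM at day 5 and 1.04 FPKM at day 3, log2 change 2.19, SE 0.68) and 1 fell (NOTCH3, 21.6 FPKM at day 5 and 39.2 FPKM at day 3, log2 change -0.86, SE 0.43). These shares lie near the 7.52% and 4.58% of all tested genes. In wild type 8 of the list rose, where 11.6% of tested genes did. HES5, a target of Notch in neural progenitors, stood at 0.658 FPKM at day 5 and 0.424 FPKM at day 3 in KO, against 7.05 and 1.24 FPKM in wild type. In the retinoic acid list of 13, CRABP1, a retinoid carrier, rose (869 FPKM at day 5 and 288 FPKM at day 3, log2 change 1.59, SE 0.44) and reached 2021 FPKM in Het and 2013 FPKM in wild type at day 5. CYP26A1, which degrades retinoic acid, had 4.81 FPKM at day 5 and 23.7 FPKM at day 3 (log2 change -2.30, SE 0.55) and fell, as did RXRG. CYP26A1 had 58.0 FPKM at day 5 and 42.0 FPKM at day 3 in Het. Its KO change minus its Het change was -2.77 (SE 0.69), with an adjusted p of 0.0509 that missed the threshold.

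Among midbrain and isthmus genes the calls were all falls. Of 10 tested, 5 fell and none rose by the authors' deposited table, and in Het 4 fell. PAX2, a paired-box factor of the isthmus, had 1.73 FPKM at day 5 and 10.6 FPKM at day 3 (log2 change -2.62, SE 0.59), DMBX1, a midbrain homeobox factor, had 3.05 FPKM at day 5 and 14.8 FPKM at day 3 (log2 change -2.27, SE 0.54), and OTX2, a forebrain and midbrain homeobox factor, had 24.8 FPKM at day 5 and 63.4 FPKM at day 3 (log2 change -1.35, SE 0.44). GBX2 and FGF8 complete the falls. LMX1A and LMX1B, dorsal midline homeobox factors, were 18.3 and 4.57 FPKM at day 5 and 16.8 and 4.93 FPKM at day 3, not called.

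Of 15 tested genes of central neural progenitors, 3 fell (LHX5, POU3F1 and OTX2) and 2 rose (FABP7 and POU3F2). LHX5, a LIM homeobox factor of the early forebrain, had 0.388 FPKM at day 5 and 11.3 FPKM at day 3 (log2 change -4.86, SE 0.83) in KO and fell in all 3 lines. SOX1, a marker of committed neural progenitors, had 1.13 FPKM at day 5 and 2.52 FPKM at day 3 in KO, not called, against 17.7 and 5.63 FPKM in Het and 24.2 and 25.9 FPKM in wild type. SOX1 was thus low in KO on both days. OLIG3, a dorsal progenitor factor, had 4.51 FPKM at day 5 and 7.45 FPKM at day 3 in KO and 0.339 and 12.0 FPKM in wild type. Its change in KO, not called, lay above that in wild type by 4.42 (SE 1.01, adjusted p 0.00754).

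Neuronal genes changed without a common direction. Of 14 tested, 3 rose and 2 fell, beside 7.52% and 4.58% of all tested genes. STMN2, a microtubule regulator of growing axons, had 4.32 FPKM at day 5 and 32.0 FPKM at day 3 (log2 change -2.89, SE 0.52), and the neurofilament NEFM had 2.37 FPKM at day 5 and 8.45 FPKM at day 3 (log2 change -1.83, SE 0.53). RTN1, a neuroendocrine reticulon, had 93.7 FPKM at day 5 and 5.97 FPKM at day 3 (log2 change 3.97, SE 0.56) in KO, 8.10 FPKM at day 5 in Het and 7.31 FPKM at day 5 in wild type. Its KO change exceeded the wild-type change by 3.64 (SE 0.83, adjusted p 0.00743). The neuronal markers TUBB3 (57.5 FPKM at day 5 and 88.3 FPKM at day 3) and MAP2 (47.6 and 56.4 FPKM) were not called.

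A set of neighbouring HOX genes reached 1 FPKM in KO alone. Of 8 tested HOX genes, HOXB2, HOXB3 and HOXB4 rose, with 8.60, 6.11 and 3.90 FPKM at day 5 and 1.06, 0.288 and 0.148 FPKM at day 3. Each of these was under 1 FPKM in all Het and wild-type groups. HOXA2, a factor of the hindbrain and second arch crest, had 3.17 FPKM at day 5 and 1.27 FPKM at day 3 in KO, not called, against 9.19 and 0.960 FPKM in Het and 10.4 and 2.77 FPKM in wild type. In the forkhead family, FOXC1 had 1.90 FPKM at day 5 and 0.126 FPKM at day 3 (log2 change 3.91, SE 0.93) and FOXD1 had 2.84 FPKM at day 5 and 0.281 FPKM at day 3 (log2 change 3.34, SE 0.90), both under 1 FPKM in Het and wild type. With FOXD3 they were among 4 rises of 13 tested, and FOXB1 and FOXH1 were the 2 falls.

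Of 19 tested collagens, 5 rose and 1 fell, and of 17 laminins and integrins 3 rose and 1 fell, beside 7.52% and 4.58% of all tested genes. COL1A2, a chain of fibrillar collagen I, had 154 FPKM at day 5 and 25.3 FPKM at day 3 (log2 change 2.61, SE 0.44) and rose in all 3 lines, and COL1A1, COL5A2, COL6A1 and COL11A1 rose by log2 changes between 1.32 and 1.95. COL14A1, a collagen associated with fibrils, fell (1.50 FPKM at day 5 and 13.8 FPKM at day 3, log2 change -3.21, SE 0.50). The integrins ITGA8 (3.95 FPKM at day 5 and 0.0989 FPKM at day 3, log2 change 5.32, SE 0.92) and ITGA4 and the laminin LAMA4 rose and ITGB5 fell, and 2 of these rises were of genes at 1 FPKM or more in a Het or wild-type group. The most abundant laminins, LAMC1 and LAMB1, had 95.8 and 61.0 FPKM at day 5 and 62.1 and 39.7 FPKM at day 3 and were not called.

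Contractile and mesenchymal genes divided. Of 18 tested, 4 rose and 5 fell. The falls were contractile genes and mechanically responsive genes. TPM1, a tropomyosin, had 96.5 FPKM at day 5 and 339 FPKM at day 3 (log2 change -1.81, SE 0.43) in KO, against 323 FPKM at day 5 in Het and 398 FPKM at day 5 in wild type. TAGLN, CNN1, MYL9 and the YAP target CTGF fell with log2 changes between -1.30 and -0.95, while TAGLN had 344 FPKM at day 5 and 137 FPKM at day 3 in wild type. COL1A1 and COL1A2 rose, as did the proteoglycans DCN and LUM, which were under 1 FPKM in all Het and wild-type groups. ANKRD1, another YAP target, had 0.799 FPKM at day 5 and 0.875 FPKM at day 3 in KO, too low for the minimum, and 11.1 and 0.294 FPKM in wild type.

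Of 23 tested axon guidance genes, 5 rose and 2 fell, beside 7.52% and 4.58% of all tested genes. The netrin receptors UNC5C and DCC had 8.53 and 3.80 FPKM at day 5, against 1.50 and 0.806 FPKM at day 3, and SLIT3, a repellent ligand, had 3.79 FPKM at day 5 and 0.395 FPKM at day 3 (log2 change 3.26, SE 0.70). NRP2 and SEMA3C are the other rises. SEMA6A, a transmembrane semaphorin, had 21.4 FPKM at day 5 and 90.7 FPKM at day 3 (log2 change -2.08, SE 0.41) and fell, as did SEMA5A. Among 16 genes of placodes and epidermis, the EYA genes EYA1, EYA2 and EYA4 rose, with 5.96, 3.38 and 11.2 FPKM at day 5 and 1.07, 1.09 and 1.30 FPKM at day 3. CLDN6, an embryonic claudin, had 25.5 FPKM at day 5 and 185 FPKM at day 3 (log2 change -2.86, SE 0.45) and fell with CDH1, DLX5 and the epithelial splicing factor ESRP1, and 2 of these 4 falls were of genes at 1 FPKM or more in a Het or wild-type group. TP63 was listed at 0.0214 FPKM at day 5 and at 0 at day 3.

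Cell cycle genes and p53 targets are given beside shares of 7.52% rises and 4.58% falls over all tested genes in KO. Of 27 cell cycle genes, 0 rose and 3 fell, namely CCND1 (57.2 FPKM at day 5 and 166 FPKM at day 3, log2 change -1.53, SE 0.41), CCNE1 and CDC6. The proliferation marker MKI67 was 29.2 FPKM at day 5 and 26.4 FPKM at day 3. In wild type 8 of the list rose and 7 fell, where 11.6% of all tested genes rose and 10.7% fell. Of 21 p53 targets, CDKN1A (56.1 FPKM at day 5 and 24.1 FPKM at day 3, log2 change 1.22, SE 0.44), BTG2 and GDF15 rose and PMAIP1 fell. In Het 12 rose, where 4.99% of all tested genes did, and in wild type 10 rose, where 11.6% did. Of 12 growth genes, MYC rose and MYCL1, IGF2BP1 and LIN28A fell. NCL and NPM1, nucleolar proteins whose genes MYC is known to activate, had 459 and 1569.9 FPKM at day 5, against 539.7 and 1742 FPKM at day 3, and were not called.

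Of 20 glycolytic and hypoxia genes, NDRG1, P4HA1, BNIP3, ALDOC and ENO2 rose by log2 changes between 0.97 and 3.14, and the glucose transporter SLC2A1 fell (35.7 FPKM at day 5 and 79.1 FPKM at day 3, log2 change -1.15, SE 0.42). In wild type 12 of the list rose, where 11.6% of all tested genes did, against 7.52% in KO. Of 21 amino-acid stress genes, DDIT4, TRIB3 and CEBPB rose and CHAC1, SLC7A5, PSAT1 and PHGDH fell. Of 19 sterol genes, 2 fell and none rose. Metallothionein MT2A, a metal-binding protein, had 20.9 FPKM at day 5 and 1.60 FPKM at day 3 (log2 change 3.70, SE 0.95) and rose, and MT1A was listed at 0 at day 3 and at 1.05 FPKM at day 5, and was under 1 FPKM in all Het and wild-type groups.

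Of 22 interferon and antigen presentation genes, 9 rose and none fell, with 7 rises left without genes under 1 FPKM in Het and wild type and a list median of 1.13. B2M, the light chain of class I antigen complexes, had 363 FPKM at day 5 and 45.7 FPKM at day 3 (log2 change 2.99, SE 0.50) in KO, 80.1 FPKM at day 5 and 27.2 FPKM at day 3 in Het, and 95.0 FPKM at day 5 and 42.4 FPKM at day 3 in wild type. B2M, HLA-B and HLA-E, with the transporter TAP1, were among the rises. HLA, metallothionein and ribosomal protein genes have near-identical copies whose reads the counting could split, so their values are less certain. In Het 10 of the list rose and in wild type 5. Of 14 imprinted genes, H19 and IGF2 rose and PLAGL1, GRB10 and NNAT fell. Of 20 housekeeping and ribosomal genes, B2M alone was called. GAPDH stood at 4101 FPKM at day 5 and 3566 FPKM at day 3 and ACTB at 1608 and 2323 FPKM, not called.

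**Figure D3:**
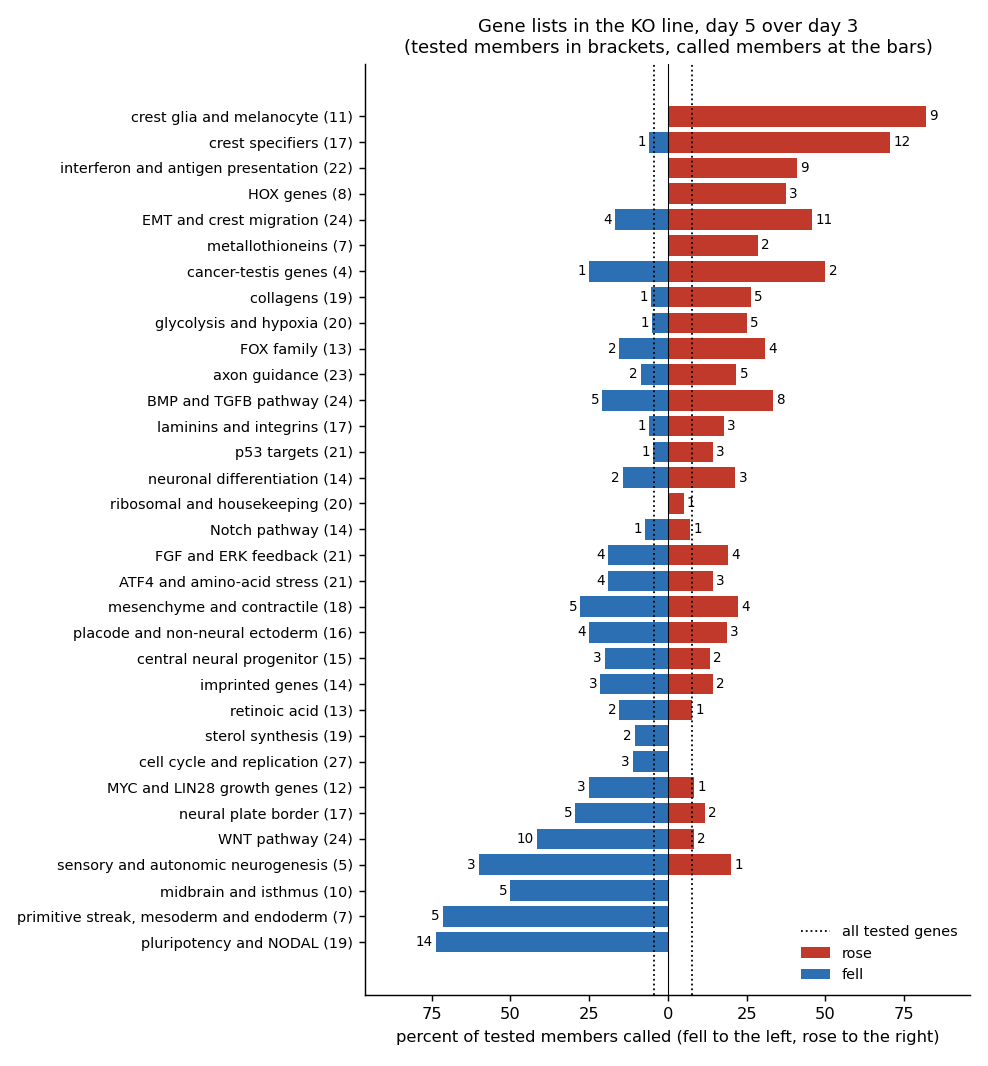
Percent of tested members of each of 33 gene lists that rose (red, to the right) or fell (blue, to the left) in the KO line, day 5 over day 3, with the number of tested members in brackets and of called members at each bar, and dotted lines at 7.52% and 4.58% for all tested genes. Crest glia and melanocyte genes have 9 rises of 11, and pluripotency and NODAL genes 14 falls of 19.

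Over all genes, NPR3, the clearance receptor of natriuretic peptides, had the largest called rise among genes above 0 on both days, with 3.65 FPKM at day 5 and 0.0386 FPKM at day 3 (log2 change 6.56, SE 0.94). The 15 largest rises also included ITGA8, OLIG2, SAGE1, OLIG1, DLX1, KLRC3, SOX10, LINC00461, HOXB4, CHI3L2, RWDD2B, ETS1 and SPARCL1, with log2 changes of 5.32 down to 4.58. Of these 15 genes, NPR3, ITGA8, SOX10, RWDD2B and ETS1 reached 1 FPKM in a Het or wild-type group, and the other 10 did not. The largest called fall was that of PPP1R17, a phosphatase inhibitor, with 0.131 FPKM at day 5 and 9.94 FPKM at day 3 (log2 change -6.25, SE 0.98). It was followed by DAZL, a germ cell RNA-binding protein, LHX5, PAPPA, a protease of insulin-like growth factor binding proteins, RET, PRDM14, LRAT, WIF1, NXPH2, EOMES, STOML3, FGF8, FST, ADRA2A and EDN1, with log2 changes of -5.03 to -3.88. Of these 15 genes, EOMES was the one under 1 FPKM in all Het and wild-type groups. A gene under 1 FPKM in all Het and wild-type groups entered only by reaching 1 FPKM in KO on either day. Reaching it at day 5 alone favours a large rise, and at day 3 alone a large fall. The share of such genes among all tested genes was not counted, so both counts are a description.

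In absolute FPKM, SEC61G, RPS4X (2953 FPKM at day 5 and 1371 FPKM at day 3, log2 change 1.11, SE 0.44), RPL39 (4008 FPKM at day 5 and 2020.3 FPKM at day 3, log2 change 0.99, SE 0.41), VIM (1202 FPKM at day 5 and 496 FPKM at day 3, log2 change 1.28, SE 0.42), CRABP1, PKM2, B2M, EIF4A2, MYC and TXNIP gained most. TXNIP, a glucose-responsive arrestin, had 205 FPKM at day 5 and 14.0 FPKM at day 3 (log2 change 3.88, SE 0.44). Of the 10 genes with the highest FPKM at day 5, all but GAPDH encoded ribosomal proteins, among them RPL41 with 7899.5 FPKM at day 5 and 6295 FPKM at day 3, and RPL39 was the one called. A level of 0 at day 3 was listed for 6 called genes, with KRTAP21-1 highest at day 5 at 3.33 FPKM. LIN28A, FST, GJA1, TPM1, ESRG, SFPQ, PODXL, HNRNPM, CLDN6 and FZD7 lost most. PODXL, a sialomucin of pluripotent and epithelial cells, had 28.3 FPKM at day 5 and 239 FPKM at day 3 (log2 change -3.08, SE 0.42), and the splicing factors HNRNPM and SFPQ had 143 and 137 FPKM at day 5, against 331 and 350.4 FPKM at day 3. Both also fell in Het and wild type, in Het with 113 and 106 FPKM at day 5 and 307 and 284 FPKM at day 3.

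The same comparison of day 5 against day 3 in the other lines shares no group with that in KO. In the authors' deposited table, 686 genes rose (4.99% of those tested) and 405 fell (2.95%) in Het, and 1595 rose (11.6%) and 1461 fell (10.7%) in wild type. The rises in KO and wild type had 384 genes in common, 36.5% of the KO rises and 24.1% of the wild-type rises. The rises in KO and Het had 265 in common, 25.2% of the KO rises and 38.6% of the Het rises. Of the KO falls, 304 (47.4%) also fell in wild type and 199 (31.0%) in Het, which were 20.8% of the wild-type falls and 49.1% of the Het falls. In the opposite direction, 15 KO rises fell in wild type and 16 KO falls rose there, against 2 and 4 in Het.

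In all 3 lines 180 genes rose and 149 fell. TPPP3, a tubulin polymerization protein, had the largest change in its least changed line. It had 3.66 FPKM at day 5 and 0.295 FPKM at day 3 (log2 change 3.63, SE 1.09) in KO, 7.01 FPKM at day 5 and 0.258 FPKM at day 3 in Het, and 8.72 FPKM at day 5 and 0.405 FPKM at day 3 in wild type. TFAP2B, SLC16A14, MMRN1, S100A10, COL1A2, and TXNIP and its fellow arrestin ARRDC4 also rose in all 3. LHX5, DAZL, FGF19, WNT4, HTR3A, the WNT inhibitor WIF1, ADRA2A, PPP1R17, PAX2 and ZSCAN10 fell in all 3. WIF1 had 0.151 FPKM at day 5 and 3.07 FPKM at day 3 (log2 change -4.35, SE 0.92) in KO, and FGF19 had 0.219 FPKM at day 5 and 4.73 FPKM at day 3 in Het. TFAP2B thus rose, and the early neural genes LHX5 and PAX2 fell, with and without the FOXB1 edit.

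Differences between the lines were tested gene by gene, as the difference of both log2 changes divided by its SE, which combines the SE of each change. The p was normal and 2-sided, adjusted by Benjamini and Hochberg over all genes of the comparison. Against wild type, the KO change was higher for 29 of 13783 genes (0.21%) and lower for 16 (0.116%). Against Het, it was higher for 11 of 13773 genes (0.0799%) and lower for 6 (0.0436%). At an unadjusted p under 0.05, 685 and 378 genes differed. With the SE scaled to the deposited p-values, 427 were higher and 303 lower against wild type, and 110 and 85 against Het, so the number of differences depends on how the deposited scores are read.

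Of the 29 genes with a higher change in KO than in wild type, 23 rose in KO, and 21 of these did not rise in wild type. MYC, S100B, PRAME, EGFR, EDNRA, FABP7, RTN1 and TGFBI, given above, are among the 29. CA12, a carbonic anhydrase, had 61.2 FPKM at day 5 and 5.19 FPKM at day 3 (log2 change 3.56, SE 0.50) in KO, 0.447 FPKM at day 5 and 0.645 FPKM at day 3 in Het, and 1.09 and 2.15 FPKM in wild type. GABBR2, a subunit of the metabotropic GABA receptor, had 4.30 FPKM at day 5 and 0.561 FPKM at day 3 (log2 change 2.94, SE 0.61) in KO, against 0.0897 FPKM at day 5 in Het and 0.168 FPKM at day 5 in wild type. CEBPB, a bZIP factor, had 5.26 FPKM at day 5 and 0.665 FPKM at day 3 (log2 change 2.98, SE 0.71), and NQO1, a quinone reductase, had 41.8 FPKM at day 5 and 7.53 FPKM at day 3 (log2 change 2.47, SE 0.51), against 2.60 FPKM at day 5 in wild type. Another 4 of the 29 were not called in KO and fell in wild type. DNAH9, an axonemal dynein, had 5.91 FPKM at day 5 and 2.79 FPKM at day 3 in KO, and 0.0781 and 5.50 FPKM in wild type.

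Of the 16 genes with a lower change in KO than in wild type, 7 fell in KO and rose in wild type. EDN1, an endothelin ligand of EDNRA and EDNRB, had 0.127 FPKM at day 5 and 1.87 FPKM at day 3 (log2 change -3.88, SE 0.95) in KO and 1.46 FPKM at day 5 and 0.118 FPKM at day 3 in wild type. PAPPA had 0.529 FPKM at day 5 and 13.6 FPKM at day 3 (log2 change -4.69, SE 0.53) in KO and 1.45 FPKM at day 5 and 0.683 FPKM at day 3 in wild type. Endothelin and its receptor EDNRA thus moved in opposite directions in KO. ADCY2, an adenylyl cyclase, had 0.810 FPKM at day 5 and 1.20 FPKM at day 3 in KO, 8.40 and 0.607 FPKM in Het, and 14.7 and 1.51 FPKM in wild type. The KO change of ADCY2 minus the Het change was -4.36 (SE 0.89, adjusted p 0.00238), and minus the wild-type change it was -3.84 (SE 0.82, adjusted p 0.00187). The change of PRMT8, a methyltransferase of the brain, was lower in KO than in Het (-3.60, SE 0.85, adjusted p 0.0249) and against wild type the difference was -1.69 (SE 0.80, adjusted p 0.895), which missed the threshold. PRMT8 had 1.43 FPKM at day 5 and 4.94 FPKM at day 3 in KO, 20.8 and 5.90 FPKM in Het, and 24.4 and 26.1 FPKM in wild type. ADCY2, NTRK2 and PRMT8 shared low day 5 levels in KO beside higher ones in Het and wild type.

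**Figure D4:**
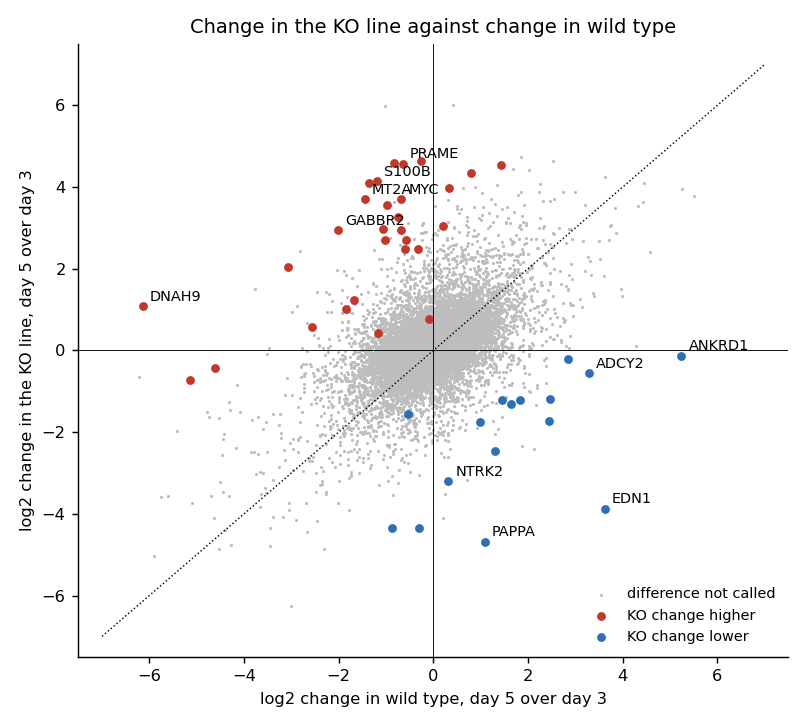
Log2 change, day 5 over day 3, in the KO line (vertical) and in wild type (horizontal) for the 13783 genes tested for a difference, with equal changes on the dotted line, the 29 genes with a higher KO change in red and the 16 with a lower one in blue. MYC differed by 4.38, and EDN1 by -7.49, on the log2 scale.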

How the data were processed

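RNA was measured in 16 libraries of 8 labelled groups, and the authors deposited 1 Cuffdiff table of 349260 rows covering 15 comparisons of 6 groups. Reads were aligned to hg19 with TopHat2 2.1.1 and compared with Cuffdiff 2.2.1, per the submitters' processing notes, while for the annotation and library filters the sources used here give nothing. The deposited FPKM values are 1 per gene and group, with replicates pooled by the authors. The deposited log2 fold changes matched the ratio of these values within 0.001 except in 25 tested genes, which were not named. The deposited test statistic is a score with no fixed range, and the deposited log2 fold change divided by it gave the SE. The deposited p-values and q-values were used as they stand. The q-values equal a Benjamini-Hochberg adjustment over all 222234 tests of the table, so the smallest possible is 0.00126. HOMO, a group name of the table, was taken to mean the KO line. Of the tested genes, 3259 had a deposited p below 0.05.

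A change was the log2 of day 5 FPKM over day 3 FPKM, called at q below 0.05. Differences between lines used a 2-sided normal p with Benjamini-Hochberg adjustment. Of 650 genes in 33 lists, 4 were not in the table. Medians of lists used log2(FPKM + 0.1), a scale that understates the change of low genes. The members, lists and tests were chosen with earlier results of these data known, and the lists of oligodendrocyte progenitor and astrocyte markers after these levels were seen. The genes named were FOXB1, the 15 largest rises and 15 largest falls, up to 5 genes listed at 0 on 1 day, the 10 most abundant, the 10 largest FPKM gains and losses, up to 6 called members of each list, and the largest differences between lines, 10 per direction against wild type and 5 against Het. Small RNA, pseudogene, antisense and unnamed entries and sex-specific genes were left out of the naming, and some genes that the rule names are not reported here. Other list members, and genes near EGFR, were named after their values were seen. Promoters came from RefSeq (GRCh38.p14), a build not mixed with hg19 coordinates. The steps of the difference test were checked on simulated data. These were drawn with the SE that the test then used, so they cannot tell which SE is right. Python 3.11.15, numpy 2.4.6, pandas 2.3.3, scipy 1.17.1 and matplotlib 3.10.9 were used.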

Additional observations from a re-analysis of the deposited data

Results flagged for a closer look

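The differences between lines with the largest size among those that passed the adjusted threshold are given here as KO change minus the other line's change, on the log2 scale. Against wild type, the change was higher in KO for DNAH9 (7.22), ACSS1 (5.45), SPARCL1 (5.42), S100B (5.35), PRAME (5.21), MT2A (5.16), PDYN (5.11), GABBR2 (4.96), RWDD2B (4.91) and CA12 (4.54). ACSS1, a mitochondrial acetate-activating enzyme, had 11.5 FPKM at day 5 and 0.673 FPKM at day 3 in KO, against 1.33 and 3.42 FPKM in wild type. PDYN, the dynorphin precursor, had 6.57 FPKM at day 5 and 1.60 FPKM at day 3 in KO, against 0.229 and 1.93 FPKM in wild type. MT2A and SPARCL1 belong with the genes that were high in KO at day 5.

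The change was lower in KO than in wild type for MAMDC2 (-3.08), LRAT (-3.47), NTRK2 (-3.51), NTRK3 (-3.66), ADCY2 (-3.84), NXPH2 (-4.03), CAV1 (-4.18), ANKRD1 (-5.37), PAPPA (-5.77) and EDN1 (-7.49). CAV1, the coat protein of caveolae, had 0.390 FPKM at day 5 and 1.29 FPKM at day 3 in KO, against 2.78 and 0.510 FPKM in wild type. LRAT, a retinol-esterifying enzyme, had 0.480 FPKM at day 5 and 9.80 FPKM at day 3 in KO, against 0.382 and 0.704 FPKM in wild type. Several of these genes lie near 1 FPKM or below in a group.

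Against Het, the change was higher in KO for GABBR2 (6.01), MYC (5.58), NPR3 (4.98), RWDD2B (4.93) and CA12 (4.09). It was lower for TSPAN11 (-3.01), PRMT8 (-3.60), ADCY2 (-4.36), ERVMER34-1 (-4.43) and NTRK2 (-4.87). Of the genes listed here, GABBR2, RWDD2B, CA12, ADCY2 and NTRK2 are listed for both comparisons, which share the KO libraries, and MYC passed the threshold in both.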

How the results depend on the processing

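No paired analysis was possible because the table holds 1 pooled value per gene and group, and leaving out a library could not be done for the same reason. In KO, 701 genes rose where at least 1 FPKM was required on both days, and 638 rose and 372 fell at q below 0.01. A normal p from the deposited test score called 472 rises and 266 falls. The other settings for these counts (no minimum, adjustment over this comparison alone, at least 2-fold, and without small RNA or unnamed entries) kept both within 1.5 times. So did leaving out genes under 1 FPKM in all Het and wild-type groups, chosen after seeing the data, which left 851 rises and 595 falls. Within GC bins, 1007 genes rose and 844 fell by a normal p with the SE scaled to the deposited p-values. Without bins that p gave 1223 rises and 740 falls, over genes with and without a GC value. With SE scaled to the deposited p-values, differences from wild type numbered 427 higher and 303 lower, and from Het 110 and 85. With at least 1 FPKM in every group they numbered 13 and 5, and 3 and 3. Of 33 list medians, 2 changed sign when restricted to members with at least 1 FPKM. That of FGF and ERK feedback genes was 0.0511 against -0.19, and that of axon guidance genes -0.149 against 0.16, and the cause was not tested. The same restriction moved 5 medians without a change of sign, among them crest specifiers to 2.47 against 1.25. A pseudocount of 1 moved 5, among them crest glia and melanocyte genes to 1.38 against 2.31 and interferon and antigen presentation genes to 0.627 against 1.13, and one of 0.01 moved 2. Of 207 named genes, 41 lost their call with the normal p, 30 at q below 0.01 and 1 within GC bins, where 1 gained a call. The 207 include genes not called in KO, which could not lose a call. Depth is unknown, so no counting interval could be given for low genes.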
